A study of Mus musculus with 2 samples.

Results

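The enzymes that write and erase methyl and acetyl groups on histones and methyl groups on DNA were compared between naive gamma/delta T cells and naive CD8+ alpha/beta T cells. The members were all probe sets whose single platform gene symbol belonged to the families Kdm, Kmt, Hdac, Sirt, Setd (with Setdb), Ezh, Dnmt or Tet. These were 153 of the 34945 probe sets with 1 symbol and 63 of 18193 genes. One group was 1 preparation of gamma/delta T cells labelled naïve and CD44-, and the other was 1 preparation of CD8+ alpha/beta T cells labelled naïve. Lymph nodes of C57BL/6 mice were the source of both, with negative selection, and no genotype, treatment, age, sex or number of mice is given in the sources used here. RNA of each was hybridised to its own MOE430 2.0 array, so there is no replicate. They are called γδ and αβ cells from here on, and every difference below is a comparison of these 2 preparations with no test.

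Lysine methyltransferases of the Kmt, Setd and Ezh families add methyl groups to histone tails, and Kdm enzymes remove them. Deacetylases of the Hdac and Sirt families remove acetyl groups, which usually goes with lower transcription. Dnmt enzymes methylate cytosines in DNA and Tet enzymes oxidise that mark. In T cells these enzymes are known for keeping lineage genes silent or open during thymic development and after activation.

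Signals are MAS5 units, which the authors had scaled to 1 target on both arrays. Of the arrays' 2 median signals the higher one, 243.3, served as a floor, to which lower signals were raised. A gene that reached the floor on 1 array only therefore has a bound ("at least N-fold"), and one that reached it on neither has no ratio. Where several probe sets measured a gene, the one with the highest mean log2 signal stood for it. Signals of different genes come from different probes and are not compared with each other. The only spread within these data is that between probe sets of 1 gene on the same arrays, with a pooled SD of 0.50 on the log2 scale over 3317 genes and 0.57 over 24 member genes.

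The arrays differed most in 1 measure of RNA integrity, the ratio of 3′ to 5′ signal of actin, which was 6.99 for γδ cells and 3.12 for αβ cells. The same ratio was 3.06 and 3.24 for Gapdh and 3.97 and 4.47 for the transferrin receptor, both lower for γδ cells. All 5 measured γδ T cell markers (such as Trgv4 and Sox13) lay above the floor on the γδ array and 0 of 5 did on the αβ array. Cd8a, a chain of the CD8 coreceptor, had a signal of 8852 in αβ cells and of 731 in γδ cells, which is still above the floor. Of the 3 CD8 αβ markers, 3 lay above the floor for γδ and 2 for αβ cells (summed 1492 and 11215), with Cd8b1 at 382 and 2193 but Tcra at 379 and 170. All 5 measured markers of T cells in general lay above the floor on both arrays, at log2 ratios from -0.04 (Cd247) to 1.21 (Cd3g). Of 3 markers of naive or memory state, Lef1 read 11679 and 27658, Ccr7 1216 and 1795, and Cd44 525 and 421. The probe sets of Cd44 disagreed in sign. Of 10 B cell markers 6 and 5 lay above the floor, with summed signals of 6085 and 5058. Ebf1 read 3331 and 2650 and Ms4a1 858 and 616, while Cd79a was under the floor on both arrays. Of 11 myeloid markers 2 and 3 lay above it (summed 1776 and 1695), and of 5 erythroid and platelet markers 0 and 0. Of 7 NK cell markers 2 and 1 did (summed 2230 and 1124), with Gzma at 1442 and 73 and Ncr1 under the floor on both arrays. Stromal and endothelial markers lay above it for 6 and 5 of 7 (summed 4369 and 4225). In such bulk RNA, fewer cells of a type and less RNA per cell cannot be told apart, and the part of other cells in the results was not tested.

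Of the 63 member genes 53 had a ratio, 45 of them above the floor on both arrays and 8 as a bound. At least 2-fold higher in γδ cells were 3 members (5.66%), against 5.82% of the 11914 genes with a ratio. At least 2-fold higher in αβ cells were 4 members (7.55%), against 3.93% of all genes. In either direction these were 7 of 53 members, against 9.74% of all genes. Both counts are small, and the first share is near that of all genes. At 1.5-fold, 10 members were higher in γδ cells (18.9%, against 17% of all genes) and 13 in αβ cells (24.5%, against 13.2%). The members' log2 ratio of γδ to αβ was below 0 in 32 of 53, or 60.4%, against 47.6% of all genes. Its median was -0.19, against 0.03 for all genes. That median depends on how probe sets are combined. With the probe sets of a gene averaged it was 0.11 over 52 members (0.02 for all genes), and with the median of their ratios it was -0.04 (0.03 for all genes).

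**Figure D1:**
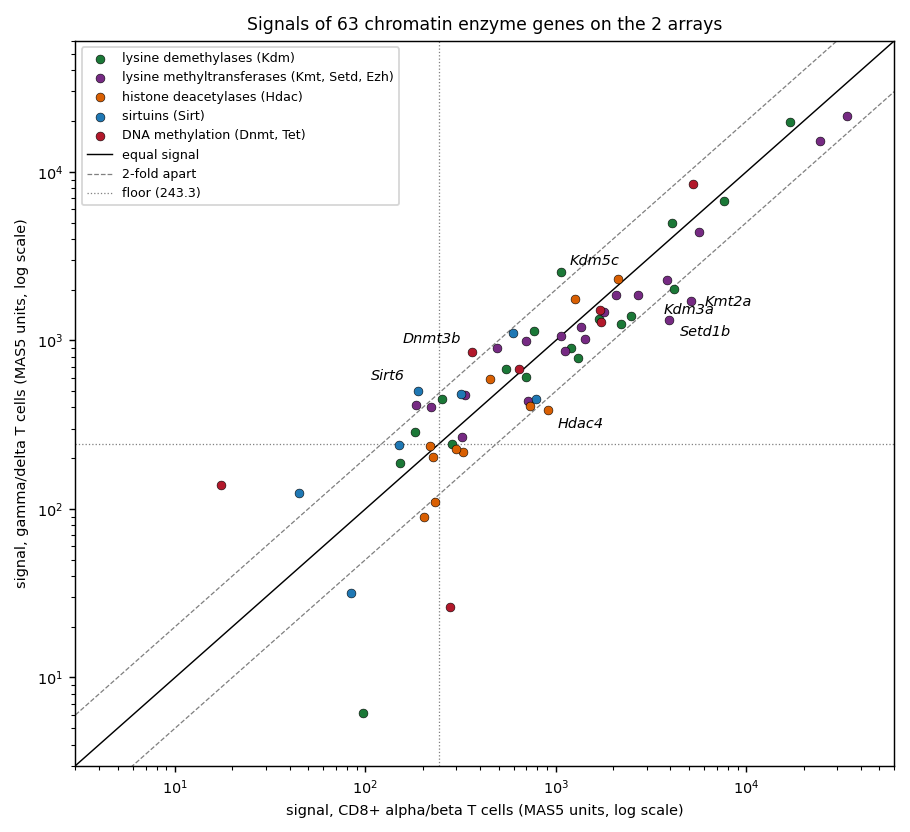
Signal of each of the 63 member genes on the αβ array (x axis, MAS5 units, log scale) and on the γδ array (y axis, same units), 1 point per gene and 1 array per group. Solid and dashed lines mark equal signals and 2-fold differences, and dotted lines mark the floor of 243.3. Most points lie between the dashed lines, and the named genes are the 7 that were at least 2-fold apart.

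Promoter windows are shown for Kmt2a and Hdac4, which were lower in γδ cells, and for Dnmt3b, which was higher there. They were among the 7 genes at least 2-fold apart, have 1 start each in the promoter table and have no probe set with a ratio of the opposite sign. The sequences are the 250 bases before the RefSeq transcription start, from build GRCm38.p6, 5′ to 3′ on the gene's strand. Capitals mark GGGCGG, the GC box read by SP and KLF factors, and CCAAT, read by NF-Y, on either strand.
Kmt2a, chr9:44881290-44881539, minus strand: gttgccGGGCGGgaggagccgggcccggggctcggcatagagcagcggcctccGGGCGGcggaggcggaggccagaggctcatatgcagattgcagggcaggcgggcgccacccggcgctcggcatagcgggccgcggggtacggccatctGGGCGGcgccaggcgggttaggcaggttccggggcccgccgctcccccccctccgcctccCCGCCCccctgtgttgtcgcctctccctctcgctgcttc
Hdac4, chr1:92180342-92180591, minus strand: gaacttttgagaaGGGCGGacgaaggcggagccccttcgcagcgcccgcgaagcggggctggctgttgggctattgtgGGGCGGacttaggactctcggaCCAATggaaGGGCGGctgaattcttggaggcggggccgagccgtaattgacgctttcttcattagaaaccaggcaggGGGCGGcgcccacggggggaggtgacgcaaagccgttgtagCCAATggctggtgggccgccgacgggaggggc
Dnmt3b, chr2:153649199-153649448, plus strand: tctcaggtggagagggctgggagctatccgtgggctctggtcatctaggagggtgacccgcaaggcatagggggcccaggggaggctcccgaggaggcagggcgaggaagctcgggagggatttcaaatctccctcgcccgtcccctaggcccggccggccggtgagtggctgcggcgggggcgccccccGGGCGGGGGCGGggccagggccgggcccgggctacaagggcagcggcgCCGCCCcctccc
The Kmt2a window held 29 CpG dinucleotides at a GC content of 76.8%, the Hdac4 window 23 at 65.2% and the Dnmt3b window 21 at 75.2%. GGGCGG occurred in all 3 windows, while CCAAT occurred in that of Hdac4 alone of the 3. Whether these motifs go with the direction of the ratios was not tested. Windows were found for 52 of the 63 members (74 windows), with a median of 17 CpG dinucleotides, against 14 in 12119 windows of genes with a ratio and 6 in all 32851 windows. GGGCGG was present in 59.5% of the member windows, 52.2% of those of genes with a ratio and 32.7% of all. CCAAT was present in 39.2%, 34.9% and 33.8%. TGANTCA, the AP-1 motif, was present in 5.41% of member windows and 4.81% of those of genes with a ratio (6.75% of all). The interferon response motif was in 0 of 74 member windows and in 0.734% and 0.685% of the others. The ETS motif CCGGAAG was in 9 of 74 member windows, 1456 of 12119 windows of genes with a ratio and 6.91% of all. The palindromic NRF1 motif was in 1.35% of member windows and 1.46% of those of genes with a ratio (0.782% of all), and the TATA box TATAAA in 4.05% and 7.92% (12.4% of all). The CREB and ATF motif TGACGTCA and the YY1 motif AAGATGGC were in 0 of 74 member windows and in 2.33% and 1.77% of those of genes with a ratio (1.55% and 1.56% of all). Both strands were searched, 1 base can belong to 2 motifs, and a match is a description of these letters.

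Among the writers, the Kmt2 and Setd1 enzymes were lower in γδ cells in all 7 members measured. All but Kmt2e encode catalytic subunits of the COMPASS complexes, which methylate the histone H3 lysine marked at active promoters and enhancers. Their median log2 ratio was -0.67, from -1.59 to -0.16, and 2 of 7 were at least 2-fold lower in γδ cells. Of all genes with a ratio 47.6% were below 0 and 3.93% at least 2-fold lower. This joint group was formed with its values known, so nothing is read from those counts. The median was -0.45 after quantile normalization, -0.40 after loess, -0.27 with the median of the probe sets' ratios and -0.19 with probe sets averaged, where Kmt2d turned to 0.42.

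Kmt2a, which encodes MLL1, had signals of 1713 in γδ and 5158 in αβ cells, so that it was 3.01-fold lower in γδ cells. Its second probe set read 1288 and 2924, which is 2.27-fold lower. Setd1b, a catalytic subunit of a sister complex, read 1330 and 3921, 2.95-fold lower in γδ cells, and its second probe set read 1002 and 2730, 2.72-fold lower. Both genes, including Kmt2a with the GC-rich promoter printed above, thus differed in the same direction by more than 2-fold on each of their probe sets. They stayed over 2-fold apart under all 9 alternative settings, Kmt2a at a log2 ratio of -1.39 or lower.

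The other Kmt2 and Setd1 genes differed less, and mostly with probe sets in disagreement. Kmt2d, which encodes MLL4, an enhancer enzyme, read 15282 and 24288 (log2 ratio -0.67). Its other probe set with a ratio had at least 0.13. Kmt2e, a family member without known methyltransferase activity, read 21415 and 34012 (-0.67), with 6 probe sets from -0.67 to 0.80 and an average of -0.02. Kmt2c, the partner of Kmt2d in enhancer methylation, read 4397 and 5652 (-0.36), with 4 probe sets from -0.54 to 0.13. Kmt2b and Setd1a had log2 ratios of -0.27 and -0.16, and both probe sets of Setd1a were below 0. Actin's 3′ to 5′ ratio likewise differed (6.99 for γδ cells, 3.12 for αβ cells), and its part in these log2 ratios was not tested.

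The non-catalytic COMPASS subunits and partners went both ways. Of 12 with a ratio, 5 were above 0 and 7 below, with a median of -0.20. Wdr82, which tethers the Setd1 complexes to RNA polymerase II, read 1733 and 3530 and was 2.04-fold lower in γδ cells. Psip1, which links Kmt2a complexes to chromatin, had a log2 ratio of -0.68 with 3 probe sets from -0.79 to -0.63. Cxxc1, the CpG-binding subunit of the Setd1 complexes, went the other way, with signals of 534 and 279 and a log2 ratio of 0.94 on 1 probe set. With quantile normalization and with loess, 0 of the 12 were at least 2-fold apart.

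**Figure D2:**
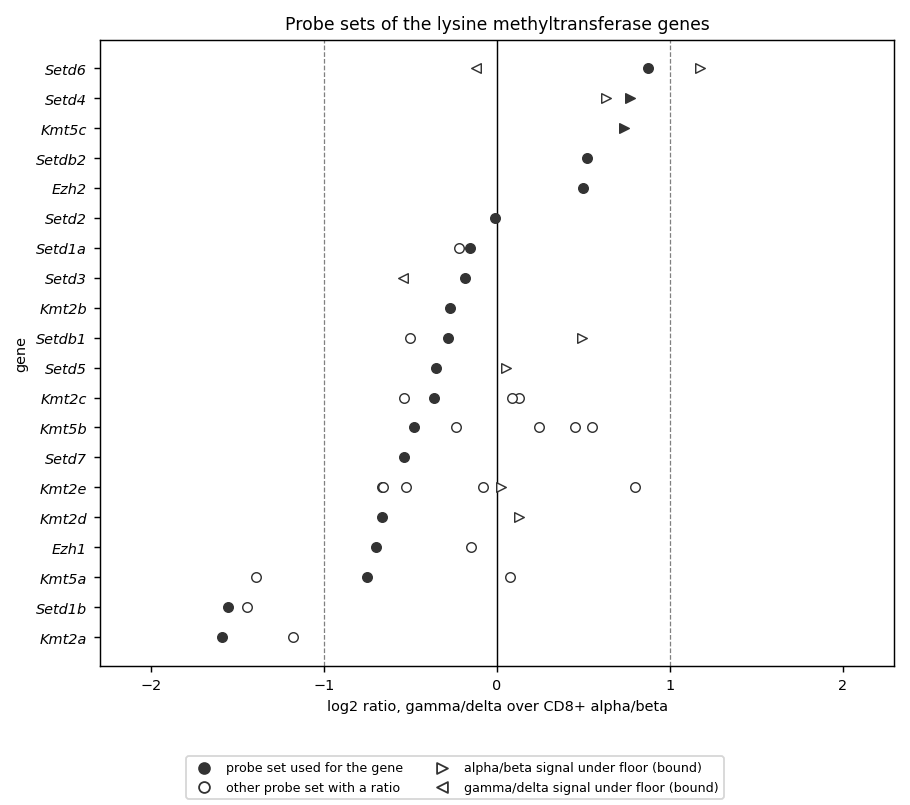
Log2 ratio of γδ to αβ signal (x axis) for every probe set with a ratio of the 20 lysine methyltransferase genes (y axis, sorted by the gene's ratio). Filled symbols are the probe sets used for a gene, open ones its other probe sets, triangles are bounds and dashed lines mark 2-fold. Kmt2a and Setd1b have all symbols left of the lower dashed line, while Kmt2e and Kmt5b spread over both sides of 0.

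Over all 20 lysine methyltransferases, 15 had a ratio below 0 and the median was -0.32. With probe sets averaged the count was 10 of 19 and the median -0.01. Kmt5a, the sole enzyme known for the single methylation of histone H4 in dividing cells, read 2271 and 3831, a log2 ratio of -0.75. Its 3 measurable probe sets ran from -1.39 to 0.08, and with probe sets averaged it was -1.72, so that its size is uncertain. Kmt5b, which adds further methyl groups to that lysine, read 1017 and 1419 (-0.48), but its 5 probe sets ran from -0.48 to 0.55. Kmt5c, its paralogue, read 405 and 222, at least 1.66-fold higher in γδ cells on 1 probe set.

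The Setd and Setdb enzymes other than Setd1a and Setd1b went both ways, and none had a ratio or bound of 2-fold or more. Setd6, which methylates the NF-kB subunit RelA, read 901 in γδ and 491 in αβ cells, 1.84-fold higher in γδ cells, with probe sets from a log2 ratio of -0.12 to at least 1.18. Setd4 read 415 and 184, at least 1.70-fold higher in γδ cells, and its second probe set was at least 1.55-fold higher. With probe sets averaged Setd6 and Setd4 had log2 ratios of 0.11 and at least 0.27, and with the floor set at the 30th percentile Setd4 had at least 1.17. Setd7, a lysine methyltransferase of histones and other proteins, read 1854 and 2690 (-0.54). Neither signal of its second probe set reached the floor, and with probe sets averaged its log2 ratio was 1.02.

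Setd2, which methylates histone H3 along transcribed gene bodies, read 1056 and 1065, a log2 ratio of -0.01 on its 1 probe set. Setd3, an actin histidine methyltransferase, and Setd5 had log2 ratios of -0.18 and -0.36. The 2 heterochromatin enzymes Setdb2 and Setdb1 had log2 ratios of 0.52 and -0.28, with 3 probe sets of Setdb1 from -0.50 to 0.49.

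Ezh1 and Ezh2 are the alternative catalytic subunits of Polycomb repressive complex 2, Ezh2 being the form of dividing cells. They differed in opposite directions. Ezh1 read 439 in γδ and 714 in αβ cells, 1.62-fold lower in γδ cells, and its second probe set had a log2 ratio of -0.15. Ezh2 read 988 and 700, a log2 ratio of 0.50 on 1 probe set. Of 8 other subunits and partners of the complex with a ratio, 6 were below 0, and their median was -0.38. Eed, the subunit that binds the complex's own mark, read 1373 and 2177 and was 1.59-fold lower in γδ cells, the one of the 8 beyond 1.5-fold. The partner complex PRC1 had a median of 0.19 over 17 genes, with Rnf2, its ubiquitin ligase, 2.16-fold lower in γδ cells and Cbx6, a reader of the mark, at a log2 ratio of 0.95.

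The lysine demethylases were spread over both directions, with 9 of 16 below 0 and a median log2 ratio of -0.20 (0.09 at the highest among the alternatives). Kdm1a, which encodes the amine oxidase LSD1, read 1404 and 2474, 1.76-fold lower in γδ cells. Its second probe set read 841 and 1521, 1.81-fold lower, so that both agreed closely. Its paralogue Kdm1b read 450 and 253 on 1 probe set, 1.78-fold higher in γδ cells, but its αβ signal lies close to the floor, and a floor at the 70th percentile left a log2 ratio of at least 0.01. The CoREST proteins, the complex in which LSD1 acts, were below 0 in 7 of 7 genes with a ratio, with a median of -0.56. Of all genes with a ratio 47.6% were below 0. The list was chosen with earlier results of these data known, so nothing is read from that count. Some of the CoREST genes have other probe sets above 0, up to 0.38, and the ratio nearest 0 is a bound of -0.10. With probe sets averaged the CoREST genes were below 0 in 5 of 6, with a median of -0.14. Rcor2 was at least 2.10-fold lower in γδ cells (121 against 510) and Rcor3, with signals of 865 and 1697, had 4 probe sets from -0.97 to -0.56.

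Among the JmjC enzymes Kdm3a, which removes repressive methylation from histone H3 and is induced in low oxygen, read 2030 in γδ and 4186 in αβ cells. It was 2.06-fold lower in γδ cells on its 1 probe set, just past 2-fold, and after loess its log2 ratio was -0.98. Kdm3b, its paralogue, had a log2 ratio of -0.22, with a second probe set at 0.63 or more and an average of 0.97. Kdm4c read 1135 and 763 (0.57), Kdm4b was at least 1.18-fold higher in γδ cells, Kdm4d at least 1.18-fold lower, and Kdm4a lay under the floor on both arrays. Kdm2a and Kdm2b, which bind unmethylated CpG through a CXXC domain, had log2 ratios of -0.43 and -0.18, and the probe sets of each disagreed in sign.

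The Kdm5 enzymes erase the mark that the Kmt2 and Setd1 enzymes write, and their members differed. Kdm5b read 787 and 1308, 1.66-fold lower in γδ cells. Of its 4 probe sets 3 lay between -0.79 and -0.65 and the fourth at 0.42 or more, and averaged it was -0.11. Kdm5a read 1343 and 1693 (-0.33), and all of its 5 probe sets were below 0, from -1.17 to -0.07, but with its probe set under the floor averaged in it was 0.29. Kdm5c, encoded on the X chromosome, read 2533 and 1059, 2.39-fold higher in γδ cells, but its 6 probe sets ran from -0.76 to 1.26 with 3 on each side of 0. Averaged, it had a log2 ratio of 0.47, so that its direction depends on the probe set.

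Kdm5d, the Y-linked relative of Kdm5c, lay under the floor on both arrays on all 3 of its probe sets, with a highest signal of 97.6. The other 2 Y-linked genes measured lay under it too. Xist, the RNA of the inactive X chromosome, read 2976 in γδ and 4793 in αβ cells, with 3 probe sets from a log2 ratio of -1.38 to -0.34. Kdm6a, an X-linked demethylase of the Polycomb mark, read 1247 and 2211 on the probe set used, 1.77-fold lower in γδ cells. Its other 3 probe sets lay between -0.14 and 0.26, so that this difference rests on 1 probe set. Kdm6b, the inducible enzyme of the same reaction, had a log2 ratio of 0.23, with a second probe set at 0.60 or more. Kdm7a and Kdm8 had log2 ratios of 0.29 and 0.31, and the 4 probe sets of Kdm7a ran from -0.40 to 0.29.

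The histone deacetylases were measurable in 7 of 11 genes, and neither signal of Hdac3, Hdac5, Hdac10 or Hdac11 reached the floor. Of the class I enzymes, Hdac1 and Hdac2 are the deacetylases of the NuRD, Sin3 and CoREST complexes. Hdac1 read 2327 and 2111 and Hdac2 read 1757 and 1265. Their log2 ratios were 0.14 and 0.47, within the spread of probe sets, and those of Hdac2 ran from -0.37 to 0.47. Hdac8 was at least 1.22-fold lower in γδ cells, with both signals near the floor.

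Class IIa deacetylases shuttle between nucleus and cytoplasm under control of calcium and antigen receptor signals. Hdac4 read 389 in γδ and 912 in αβ cells, 2.35-fold lower in γδ cells. Its second probe set read 139 and 421, at least 1.73-fold lower, and its log2 ratio was -0.89 with probe sets averaged. Hdac7, known for its part in thymocyte selection, gave opposite results on its 2 probe sets. One read 408 and 728, 1.78-fold lower in γδ cells, and the other read 1037 and 245, 4.23-fold higher there, so that its direction depends on the probe set. Hdac9 had log2 ratios of 0.38 and -0.14 on its 2 probe sets. Hdac6, the class IIb deacetylase of tubulin, was at least 1.34-fold lower in γδ cells, with signals of 216 and 325.

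Several partners of these enzymes were over 2-fold apart, and 9.74% of all genes were at least 2-fold apart. In NuRD, Chd4, the remodelling ATPase, read 230 in γδ and 1189 in αβ cells and was at least 4.89-fold lower in γδ cells, and its second probe set had a log2 ratio of -1.05. Mbd2, which recruits the complex to methylated DNA, was 2.18-fold lower (4138 against 9040, 2 probe sets at -1.46 and -1.13), while Mta1, a scaffold subunit, was 2.40-fold higher (888 against 370). In the Sin3 complex Arid4a and Arid4b, paired DNA-binding subunits, were 2.76-fold and 2.15-fold lower in γδ cells, and all 3 probe sets of each were below 0. Tbl1x, a subunit of the NCoR and SMRT corepressors, was 2.03-fold lower, with 3 probe sets from -1.02 to -0.25. With quantile normalization and with loess, 0 of the 4 genes of its list were at least 2-fold apart. The list medians were -0.02 for NuRD over 9 genes, -0.08 for Sin3 over 13 and -0.53 for NCoR and SMRT over 4, against 0.03 for all genes.

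The acetyltransferases, which act against the deacetylases, were below 0 in 10 of 14 genes with a median of -0.43 (from -0.57 to -0.26 among the alternatives). Below 0 were 47.6% of all genes with a ratio. Crebbp read 12511 and 32179, 2.57-fold lower in γδ cells, with 4 probe sets from -1.36 to 0.18. Its paralogue Ep300 read 2146 and 4060 on 1 probe set (-0.92), and Ncoa3, a coactivator, 4641 and 9207 (-0.99), with a second probe set at 0.33. None of the 14 was 1.5-fold higher in γδ cells and 7 were at least 1.5-fold lower, against 17% and 13.2% of all genes. With probe sets averaged 8 of 13 were below 0, against 48.0% of all genes. In that setting 1 was at least 2-fold higher in γδ cells and 1 at least 2-fold lower, beside 459 and 322 of 9567 genes. Other lysine methyltransferases (12 genes, median -0.01), arginine methyltransferases (8 genes, -0.01) and other JmjC proteins (9 genes, 0.00) centred on 0. Prmt1, the main arginine methyltransferase, was 2.38-fold lower in γδ cells (246 against 586), and Riox1, a ribosomal oxygenase, was 3.05-fold higher (1331 against 436), each on 1 probe set. The γδ signal of Prmt1 lies just above the floor. With a floor at the 70th percentile 0 of 6 arginine methyltransferases were at least 2-fold apart.

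**Figure D3:**
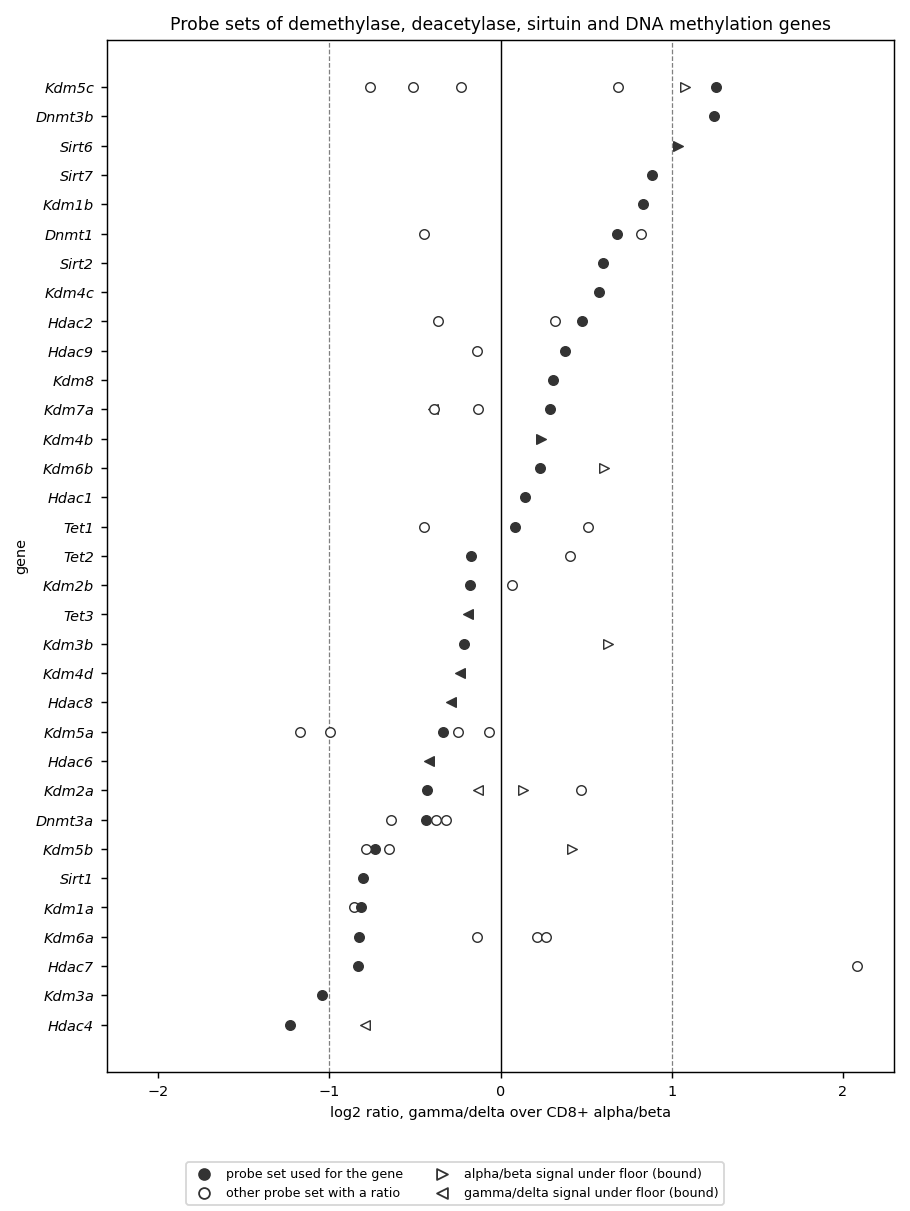
Log2 ratio of γδ to αβ signal (x axis) for every probe set with a ratio of the demethylase, deacetylase, sirtuin and DNA methylation genes (y axis, sorted by the gene's ratio), with filled symbols for the probe set used, open ones for others and triangles for bounds. The probe sets of Kdm1a, Kdm5a, Dnmt3a and Hdac4 keep to the left of 0, while those of Hdac7 and Kdm5c lie far apart.

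Sirtuins are deacetylases that depend on NAD. The nuclear Sirt7, an enzyme of the nucleolus, read 1104 in γδ and 598 in αβ cells, 1.84-fold higher in γδ cells. Sirt6, a nuclear enzyme of DNA repair and metabolism, read 500.0 and 189, at least 2.05-fold higher, and Sirt2, mainly cytosolic, read 482 and 318, 1.51-fold higher. Sirt1, which deacetylates histones, p53 and FoxO factors, went the other way, at 448 and 782, 1.74-fold lower in γδ cells. Each of these 4 genes rests on 1 probe set with a ratio. Under a floor at the 70th percentile Sirt6 had a bound of 0.16 and Sirt2 of 0.11 on the log2 scale. Sirt1 kept its ratio there with a γδ signal just above that floor of 447. The mitochondrial Sirt3, Sirt4 and Sirt5 did not reach the floor in either cell type by the probe sets used.

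The 3 active DNA methyltransferases differed in direction. Dnmt1, which copies methylation after replication, read 8444 and 5261, higher in γδ cells by a log2 ratio of 0.68. Its 3 probe sets read log2 ratios of 0.82, 0.68 and -0.45, the last at signals of 292 and 398 near the floor. Those above 0 are both of the _x_at type and the one below 0 is of the _a_at type. Without these types Dnmt1 had no ratio, so that its direction rests on the _x_at probe sets. Dnmt3a, a de novo methyltransferase that restrains lineage change in T cells, read 1279 and 1733 (-0.44), and all 4 of its probe sets with a ratio were below 0, from -0.64 to -0.32. Dnmt3b, the other de novo enzyme, read 858 and 361, 2.37-fold higher in γδ cells. Neither signal of its second probe set, 186 and 121, reached the floor, and with probe sets averaged its log2 ratio was 0.72. Dnmt3l, a germ cell cofactor, lay under the floor on both arrays.

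Markers of dividing cells were mixed, while Dnmt1 and Ezh2, which dividing cells use, were both above 0. Of 14 such markers with a ratio, 0 were over 2-fold higher in γδ cells and 4 over 2-fold lower, with 5 above 0 (Mki67 at 0.26), 9 below 0 and a median of -0.37. The summed signals over 15 were 20280 and 41263, to which Stmn1 alone gave 8864 and 25540. Their part in the ratios of these enzymes was not tested. Of 14 readers and cofactors of DNA methylation, Mbd2 alone was 2-fold apart. In this list 6 genes were above 0 and 8 below, among the latter Uhrf1 at -0.57, with both probe sets below 0. Gadd45g and Gadd45a, stress proteins tied to DNA demethylation, were at least 1.79-fold and 1.66-fold higher in γδ cells.

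The Tet enzymes differed little or by probe set. Tet2, the main Tet enzyme of T cells beside Tet3, read 1510 in γδ and 1700 in αβ cells, and its second probe set read 1130 and 851, so that the log2 ratios were -0.17 and 0.41. Tet1 had log2 ratios from -0.45 to 0.51 over 3 probe sets. Tet3 read 26.1 and 277 and was at least 1.14-fold lower in γδ cells, a bound set by an αβ signal just above the floor.

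**Figure D4:**
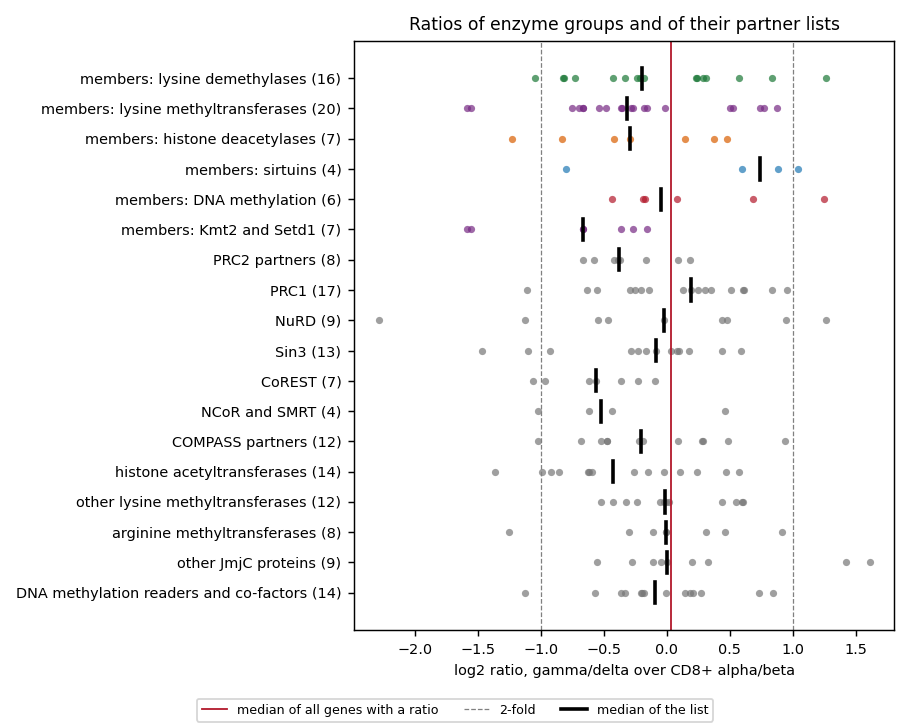
Log2 ratio of γδ to αβ signal (x axis) of each gene with a ratio (points), by enzyme group and by list of partner genes (y axis, number of genes in parentheses), with black bars for list medians, a red line for the median of all genes (0.03) and dashed lines for 2-fold. By the probe sets used, the Kmt2 and Setd1 genes and the CoREST list lie wholly left of 0, and 3 of 4 sirtuins right. The Kmt2 and Setd1 group was formed with its values known, and the lists were chosen with earlier results of these data known. With probe sets averaged the Kmt2 and Setd1 group was below 0 in 6 of 7 genes and the CoREST list in 5 of 6.

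Of 32 member genes with at least 2 probe set ratios, 9 (28.1%) had all of them below 0, against 23.3% of 4890 genes, and 2 (6.25%) had all above 0, against 23.9%. The 9 were Dnmt3a, Ezh1, Hdac4, Kdm1a, Kdm5a, Kmt2a, Setd1a, Setd1b and Setd3, and the 2 were Kdm6b and Setd4. The probe sets of the other 21 disagreed in sign. Members that were at least 2-fold apart under all 9 alternatives were Kmt2a and Setd1b. Kdm3a and Hdac4 were so under 8 of 9, Sirt6 under 8 of 9, Kdm5c under 7 of 9 and Dnmt3b under 6 of the 8 that gave it a ratio.

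**Figure D5:**
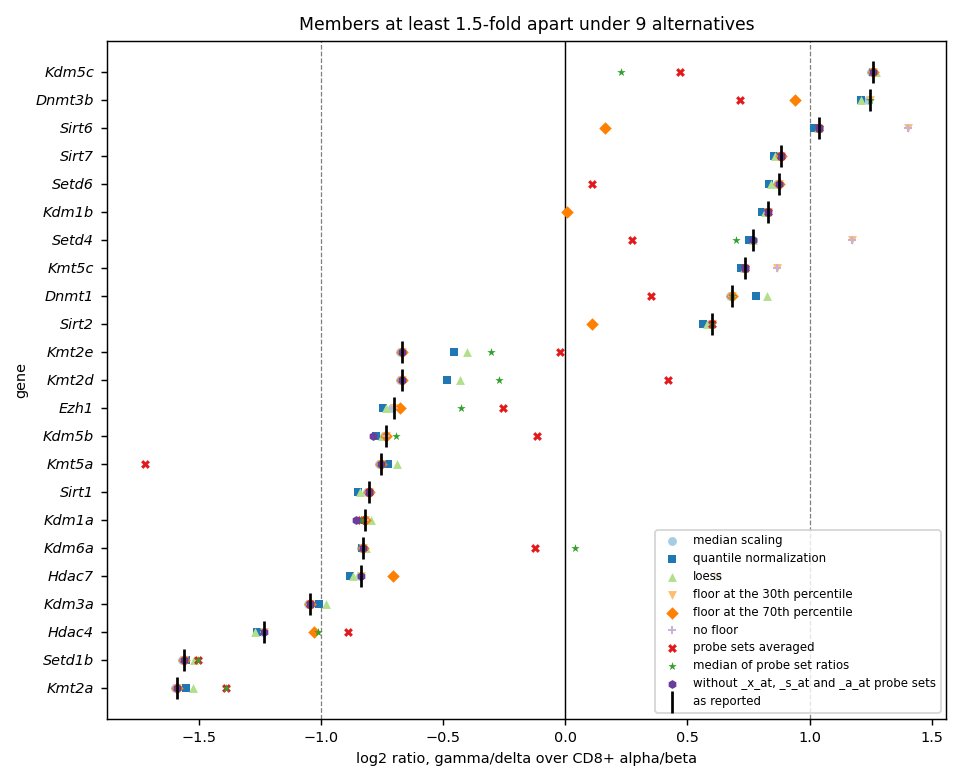
Log2 ratio of γδ to αβ signal (x axis) of the 23 member genes at least 1.5-fold apart (y axis), as reported (black bars) and under 9 alternative settings (symbols), with dashed lines at 2-fold. Kmt2a and Setd1b stay at -1.39 or lower, whereas Hdac7, Kmt2d and Kdm6a cross 0.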

How the data were processed

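The labels' protocols give biotin labelling of total RNA in 1 cycle. MAS5 signal intensities on a linear scale, 1 for each probe set on each array, are what the authors deposited. The submitters' processing notes name Expression Console 1.0 for that step. Both arrays had a trimmed mean (2% left out at each end) of 500.003 and were used as deposited, within a tolerance of 1%. The number of arrays limits the precision. Names came from the platform annotation: 932 probe sets have several symbols and 9160 none listed, and these and 64 controls name no gene. All 63 member symbols matched a RefSeq gene table (GRCm38.p6) by gene identifier. Python 3.11.15, pandas 2.3.3 and statsmodels 0.14.6 were used. Ratios were checked on simulated arrays. The members and lists were chosen with earlier results of these data known. Named were members at least 1.5-fold apart, the extremes of each class, members needed to account for all, and up to 3 genes per partner list by size of ratio. With 1 array per group no test, standard error or p-value was computed. The 9 alternatives changed the scaling (median, quantile, loess with span 0.4), the floor (30th or 70th percentile, none) or the probe sets (averaged, median of ratios, without _x_at, _s_at and _a_at).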

Additional observations from a re-analysis of the deposited data

How the results depend on the processing

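Median scaling, quantile normalization and loess moved no count of 2-fold members by over 1.5 times, and no class median and none of the 53 members' ratios by more than the probe set SD of 0.50. Under a floor at the 70th percentile 1 of 45 members was 2-fold higher in γδ cells and 4 were lower, beside 396 and 284 of 7612 genes. The sirtuin median was 0.13 there. With no floor 6 of 63 members were higher and 9 lower, beside 2917 and 2593 of 18193 genes. With probe sets averaged the medians were 0.29 for Kdm5, 0.11 for Kmt5 and 0.12 for class IIa deacetylases. With the median of probe set ratios those of Kmt5 and class IIa were 0.24 and 0.12. Leaving out the _x_at, _s_at and _a_at types, the Ezh median was 0.50, from Ezh2 alone, and the Dnmt median was -0.44, from Dnmt3a alone. Of 464 values of the 53 members under the alternatives 440 moved by less than that SD and 24 by more, 14 of these with probe sets averaged, and none of the 7 members at least 2-fold apart changed sign. Of the other members with a ratio, Hdac7, Hdac9, Kdm3b, Kdm5a, Kdm6a, Kdm7a, Kmt2d, Kmt5b, Setd7, Setdb1 and Tet2 did under at least 1 alternative, in each case one that combines or leaves out probe sets. No paired analysis was possible because each group holds 1 array. Low signals limit the 8 members with a bound and the 10 with no ratio.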

Other observations

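One further probe set carried the symbols of Kdm6b and of a second gene and was left out of the comparisons for that reason. It read 4116 in γδ and 4726 in αβ cells, a log2 ratio of -0.20.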
